A study of Mus musculus with 4 samples.

Results

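The DNA replication and S phase genes are 43 genes that load, start and run the copying of the genome. They were picked by gene symbol, and all 43 were among the 32246 genes of the deposited table. RNA was sequenced from spinal cord mononuclear cells of C57BL/6 mice that had experimental autoimmune encephalomyelitis (EAE), a model of multiple sclerosis in which an immune attack is raised against myelin. One group received a scramble micropeptide (Scr) and the other microPEP155 (P155), in each case every other day from the eighth day after immunization. Each group had 2 libraries, numbered 4 and 5 in the labels. The labels do not say whether the libraries came from separate animals or pools, so p-values reflect only how these samples vary, and that variation may be technical.

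Cells that are about to divide first mark their replication origins with the origin recognition complex, which with CDC6 and CDT1 loads the ring-shaped MCM helicase onto DNA. CDC45 and the GINS complex switch the helicase on, primase and the DNA polymerases copy the strands, and the sliding clamp PCNA, placed by the RFC clamp loader, holds the polymerases in place. Many of these genes are known targets of E2F transcription factors, which are released as a cell commits to S phase. In EAE the dividing cells of the spinal cord include lymphocytes, myeloid cells and microglia, while several members, such as the RPA, RFC and DNMT1 genes, also serve DNA repair or methylation in cells that do not divide.

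The upstream sequences of the MCM genes are shown because these genes encode subunits of 1 ring and 4 of the 5 with a window hold at least 2 E2F-type words. Each window runs from 250 bases before the RefSeq start to 50 bases after it in GRCm38.p6. The words searched were TTTCCCGC, TTTCGCGC, TTTGCCGC and TTTGGCGC on both strands, and capitals mark a match. In the windows of Mcm5 (chr8:75109259-75109558, plus strand) and Mcm6 (chr1:128359656-128359955, minus strand), matches on the 2 strands overlap, so that 1 longer run of capitals holds 2 words. The window of Mcm3 lies at chr1:20820263-20820562 on the minus strand, and that of Mcm7, from the RefSeq start whose window holds matches, at chr5:138171834-138172133 on the minus strand. Rrm2 (chr12:24708004-24708303, plus strand) is added because its log2 difference was the lowest among members with a listed window.
Mcm3: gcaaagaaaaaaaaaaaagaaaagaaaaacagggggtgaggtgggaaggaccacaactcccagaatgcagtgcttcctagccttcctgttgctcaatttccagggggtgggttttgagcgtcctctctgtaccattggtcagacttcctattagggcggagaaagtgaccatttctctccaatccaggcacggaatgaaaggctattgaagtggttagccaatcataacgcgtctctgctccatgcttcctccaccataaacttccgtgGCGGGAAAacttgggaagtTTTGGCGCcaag
Mcm5: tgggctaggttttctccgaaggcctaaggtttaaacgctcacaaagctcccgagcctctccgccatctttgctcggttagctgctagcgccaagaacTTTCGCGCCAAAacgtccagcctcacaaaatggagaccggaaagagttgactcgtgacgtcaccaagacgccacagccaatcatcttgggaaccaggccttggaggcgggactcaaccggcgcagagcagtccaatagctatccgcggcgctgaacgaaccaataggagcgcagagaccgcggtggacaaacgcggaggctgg
Mcm6: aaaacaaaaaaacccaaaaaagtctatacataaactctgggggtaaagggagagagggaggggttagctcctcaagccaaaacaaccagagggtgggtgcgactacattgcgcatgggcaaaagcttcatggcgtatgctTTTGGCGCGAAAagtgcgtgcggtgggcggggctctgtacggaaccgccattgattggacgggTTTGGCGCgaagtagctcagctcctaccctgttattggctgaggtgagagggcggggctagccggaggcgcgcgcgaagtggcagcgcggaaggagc
Mcm7: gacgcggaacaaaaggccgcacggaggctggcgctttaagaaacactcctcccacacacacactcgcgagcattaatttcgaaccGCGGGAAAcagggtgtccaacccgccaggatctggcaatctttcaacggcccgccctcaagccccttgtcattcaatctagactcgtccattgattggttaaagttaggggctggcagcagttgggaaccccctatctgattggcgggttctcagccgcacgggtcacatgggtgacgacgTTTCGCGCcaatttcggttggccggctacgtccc
Rrm2: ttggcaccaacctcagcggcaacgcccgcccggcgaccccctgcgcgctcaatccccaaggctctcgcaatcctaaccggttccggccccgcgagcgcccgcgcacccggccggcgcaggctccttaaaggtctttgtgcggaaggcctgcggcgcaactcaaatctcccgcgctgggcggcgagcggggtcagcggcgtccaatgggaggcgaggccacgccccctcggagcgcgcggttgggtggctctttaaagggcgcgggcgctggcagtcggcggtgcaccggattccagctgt

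RefSeq windows were found for 35 members, and 14 of them, 40%, held at least 1 E2F-type word. Over all 27025 genes with windows the share was 2.6%. The CCAAT word, searched on both strands, was present for 24 of the 35 members (68.6%) and for 41.1% of all genes. The words TTTGAA and TTCGAA, which belong to the element of late cell cycle promoters called CHR, were present for 7 members (20%) and for 21.7% of all genes. The 14 members with an E2F-type word had a median log2 difference between P155 and Scr of -0.18, and the 21 without had -0.16. These medians were close, and members of each set stood lower and higher in P155. These windows are short and the words exact, so a missing match says only that these letters are not there.

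The question put to the libraries was whether transcripts of these cells differ between mice given P155 and mice given Scr. As a group, the replication genes stood slightly lower in P155. Of the 43 genes 32 were lower on average and 11 were higher, beside 53.4% of all genes lower. The median log2 difference was -0.16, against -0.03 over all 27079 genes tested. By limma with Benjamini-Hochberg adjustment 0 of the 43 genes had an adjusted p under 0.05, as had 0% of all genes (0 of 27079, 1179 at an unadjusted p under 0.05), and the smallest adjusted p of any member was 0.861. With limma-voom on the recovered reads, 0 members and 0 genes in all passed adjustment, with 1072 genes at an unadjusted p under 0.05. By limma, Tk1 was the 1 member with an unadjusted p under 0.05, where 3.18% of all genes were lower and 1.17% higher at that threshold. All members passed the filter on low values. None of the members had an FDR under 0.05 with a lower level in P155 in the authors' deposited table (0 of 43), beside 0.36% of all its genes, and its smallest FDR for a member was 0.412, for Tk1. The unadjusted p of that table, from a test it does not name, was 0.00909 for Tk1 and 0.00994 for Rrm2. It was 0.0182 for Uhrf1 and 0.0243 for Chaf1b, each lower in P155. The share of all genes with such values in that table was not computed.

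The libraries held 30777553 (P155 replicate 5) to 64702948 reads (Scr replicate 5). Levels are given as log2(normalized reads + 1), so that a difference of 1 is a doubling, and paired values of a group are in the order of replicates 4 and 5. P155 lay below Scr without overlap of the libraries in 15 of the 43 members (34.9%), beside 19.6% of all genes, and above Scr without overlap in 2 members (4.65%), beside 15.2%. In the other 26 the groups overlapped. Members can move together, so these counts are not separate pieces of evidence. The group difference was larger than the gap between the libraries of either group in 12 members (27.9%), beside 19.5% of all genes. For the typical member the replicate gaps exceeded the group difference: the median absolute difference between groups was 0.20, while the median gap was 0.29 between the Scr libraries and 0.26 between the P155 libraries. The same held over all genes tested, with a median absolute difference of 0.31 and median gaps of 0.44 (Scr) and 0.34 (P155). The 95% limma interval lay within -1 and 1 for 24 members, and for 19 it reached below -1 or above 1.

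Set beside all genes, the lower values of the members depended largely on Scr replicate 4. This library held the highest value of 25 members and P155 replicate 4 the lowest of 16. The same counts were not made over all genes, so they are not shown to be particular to the members. Averaged over the members, the level relative to the mean of the libraries was 0.21 in Scr replicate 4 and 0.04 in Scr replicate 5. It was -0.15 in P155 replicate 4 and -0.10 in P155 replicate 5. When Scr replicate 4 was dropped, 26 members were lower and their median log2 difference was -0.09, beside -0.07 for all genes. The members' median less that of all genes was then -0.02, while it was -0.12 with every library kept. Dropping Scr replicate 5 left 36 members lower at a median of -0.25, beside -0.04 for all genes, which is -0.22 relative to all genes. That relative value was -0.06 with P155 replicate 4 dropped and -0.21 with P155 replicate 5 dropped. On a scale set by pan-leukocyte markers, the median of all genes shifted up by 0.79 and 3 members were lower. That scale takes the same value off every gene of a library, so every log2 difference moved by the same amount. The members' median therefore had to stay 0.12 below that of all genes, as on the deposited scale (a difference of -0.12 in each). This unchanged distance tests nothing.

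**Figure D1:**
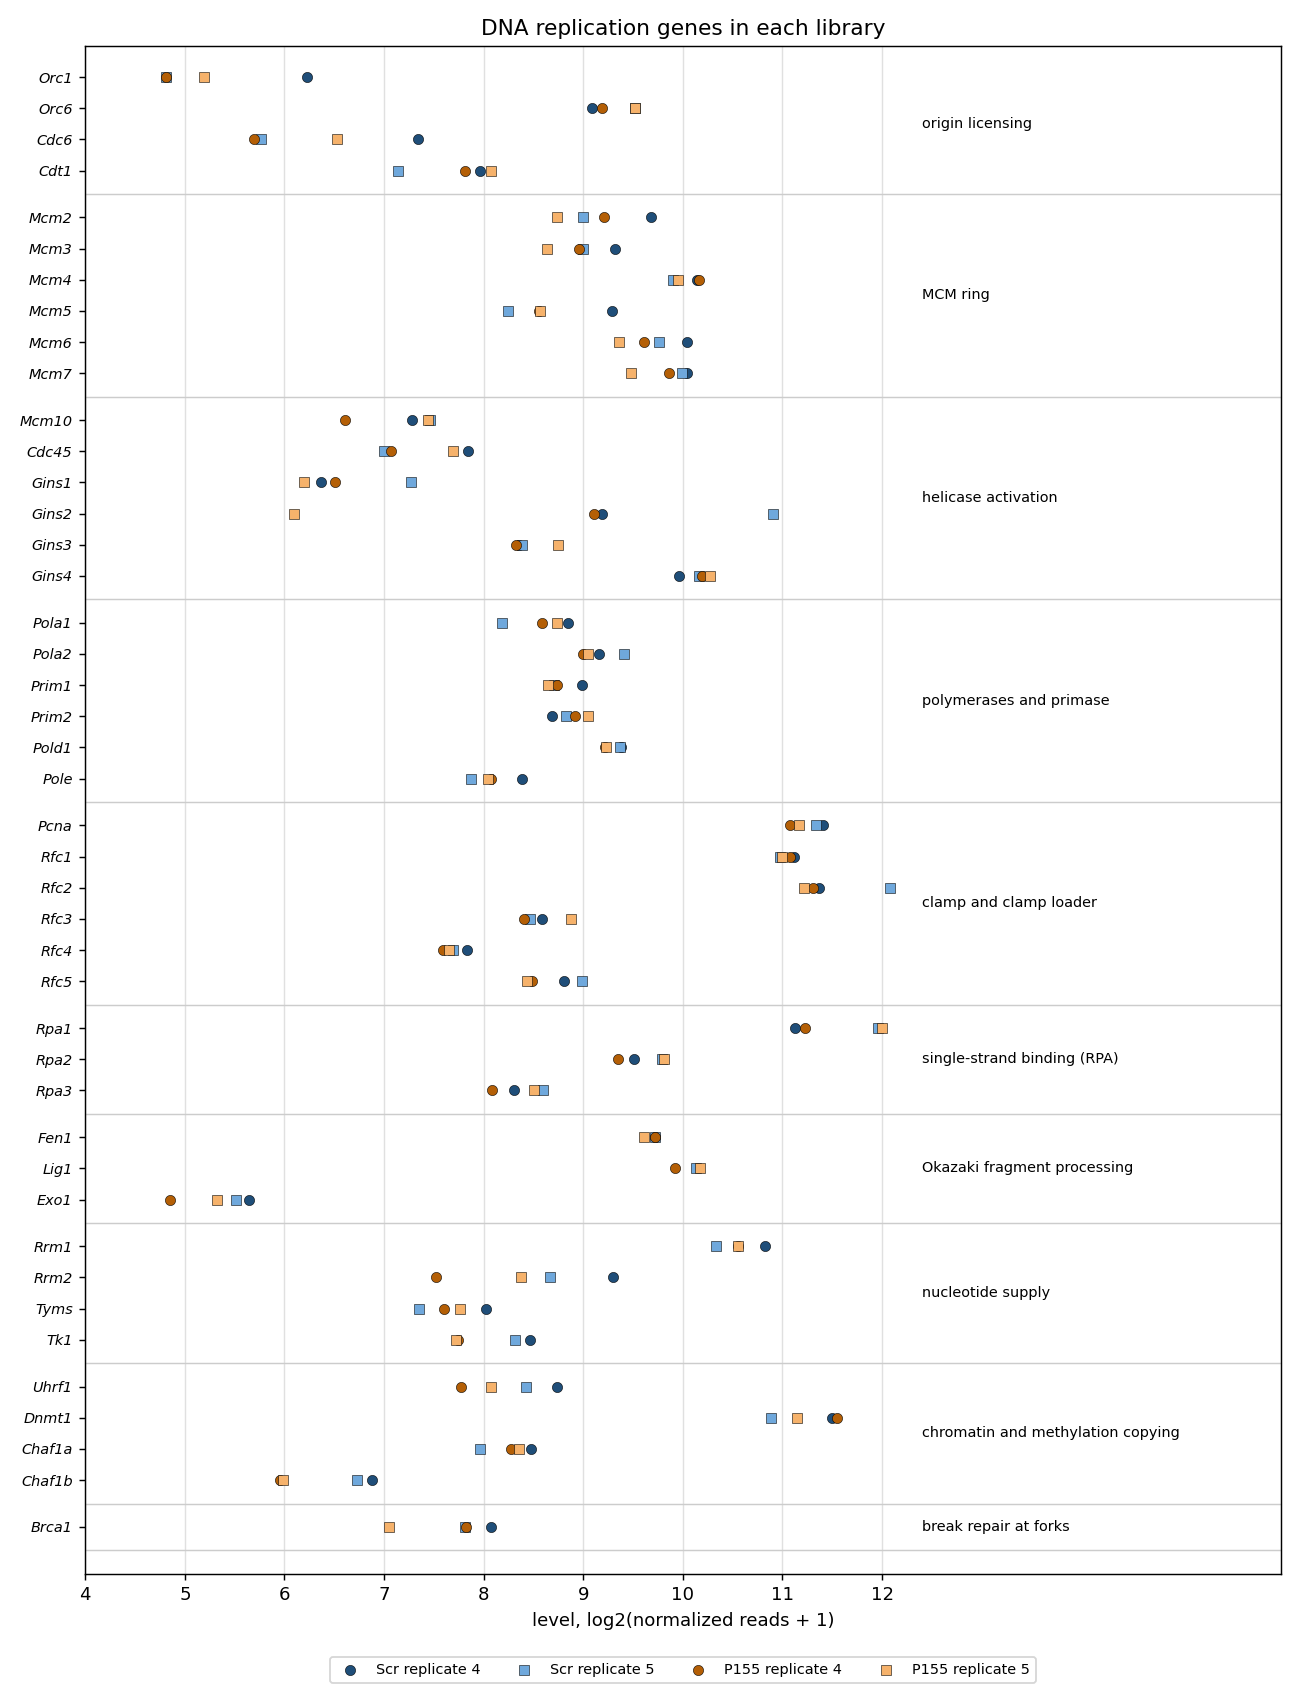
Level of each of the 43 replication genes in each library, as log2(normalized reads + 1), grouped by role, with 1 point per library. In 26 genes the points of the groups overlap. Tk1, Chaf1b, Uhrf1 and Rrm2 are among the 15 genes with both P155 points to the left of both Scr points, and in 2 genes both lie to the right. The points of Gins2, Cdc6 and Orc1 are spread widely.

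Among genes that supply nucleotides, Rrm2 and Tk1 stood lower in P155 without overlap, whereas the groups overlapped for Rrm1 and Tyms. Rrm2 encodes the small subunit of ribonucleotide reductase, which is made in S phase and limits the supply of deoxynucleotides. Its level was 9.30 (replicate 4) and 8.67 (replicate 5) under Scr and 7.52 and 8.37, in the same order, under P155. Each P155 value was under each Scr value, with P155 replicate 4 the lowest. The log2 difference was -1.04 (SE 0.41, 95% interval -2.12 to 0.04, limma adjusted p = 0.861), and it ranged from -1.46 to -0.62 when each library was left out in turn. Tk1, the cytosolic thymidine kinase of S phase cells (ENSMUSG00000025574, chromosome 11, 117815526 to 117826092, minus strand, mm10), stood at 8.47 and 8.31 under Scr and 7.74 and 7.72 under P155. Here the replicates of each group were close, and the groups were apart by several times their gaps. The log2 difference was -0.66 (SE 0.24, 95% interval -1.30 to -0.02, limma unadjusted p = 0.0452, limma adjusted p = 0.861). Relative to pan-leukocyte markers, a scale that raised every log2 difference by 0.79, Tk1 was 0.13 higher in P155. Rrm1, the large subunit of the same reductase, whose protein is present through the cell cycle, stood at 10.82 and 10.33 under Scr and at 10.55 in each P155 library. Tyms, the thymidylate synthase gene, stood at 8.02 and 7.35 under Scr and 7.60 and 7.76 under P155. For Rrm1 and Tyms the P155 values lay between the Scr values, and the 95% intervals of their differences were -0.61 to 0.56 and -0.90 to 0.90.

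Among genes that copy chromatin and DNA methylation, Chaf1b and Uhrf1 stood lower in P155 in both libraries, whereas the groups overlapped for Chaf1a and Dnmt1. Chaf1b, a subunit of the histone chaperone CAF-1, stood at 6.88 and 6.73 under Scr and 5.95 and 5.99 under P155. Uhrf1, which brings the maintenance methyltransferase to newly copied DNA, stood at 8.74 and 8.42 under Scr and 7.77 and 8.07 under P155. In both genes the groups did not overlap. The log2 difference was -0.84 for Chaf1b (SE 0.34, 95% interval -1.74 to 0.06, limma adjusted p = 0.861). For Uhrf1 it was -0.66 (SE 0.27, 95% interval -1.36 to 0.05, limma adjusted p = 0.861). Chaf1b was also scarce, with 37 reads in P155 replicate 5, so its values there carry more counting error. Chaf1a, the large CAF-1 subunit, had a log2 difference of 0.09, but 52.5% of its annotated exon bases overlap exons of Ubxn6 on the opposite strand. Whether the counting used strand is not given in the sources used here, so reads of such pairs cannot be told apart with certainty. Dnmt1, the maintenance methyltransferase itself, stood at 11.50 and 10.88 under Scr and 11.55 and 11.15 under P155. It was high in the libraries numbered 4 of both groups, and the groups overlapped.

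**Figure D2:**
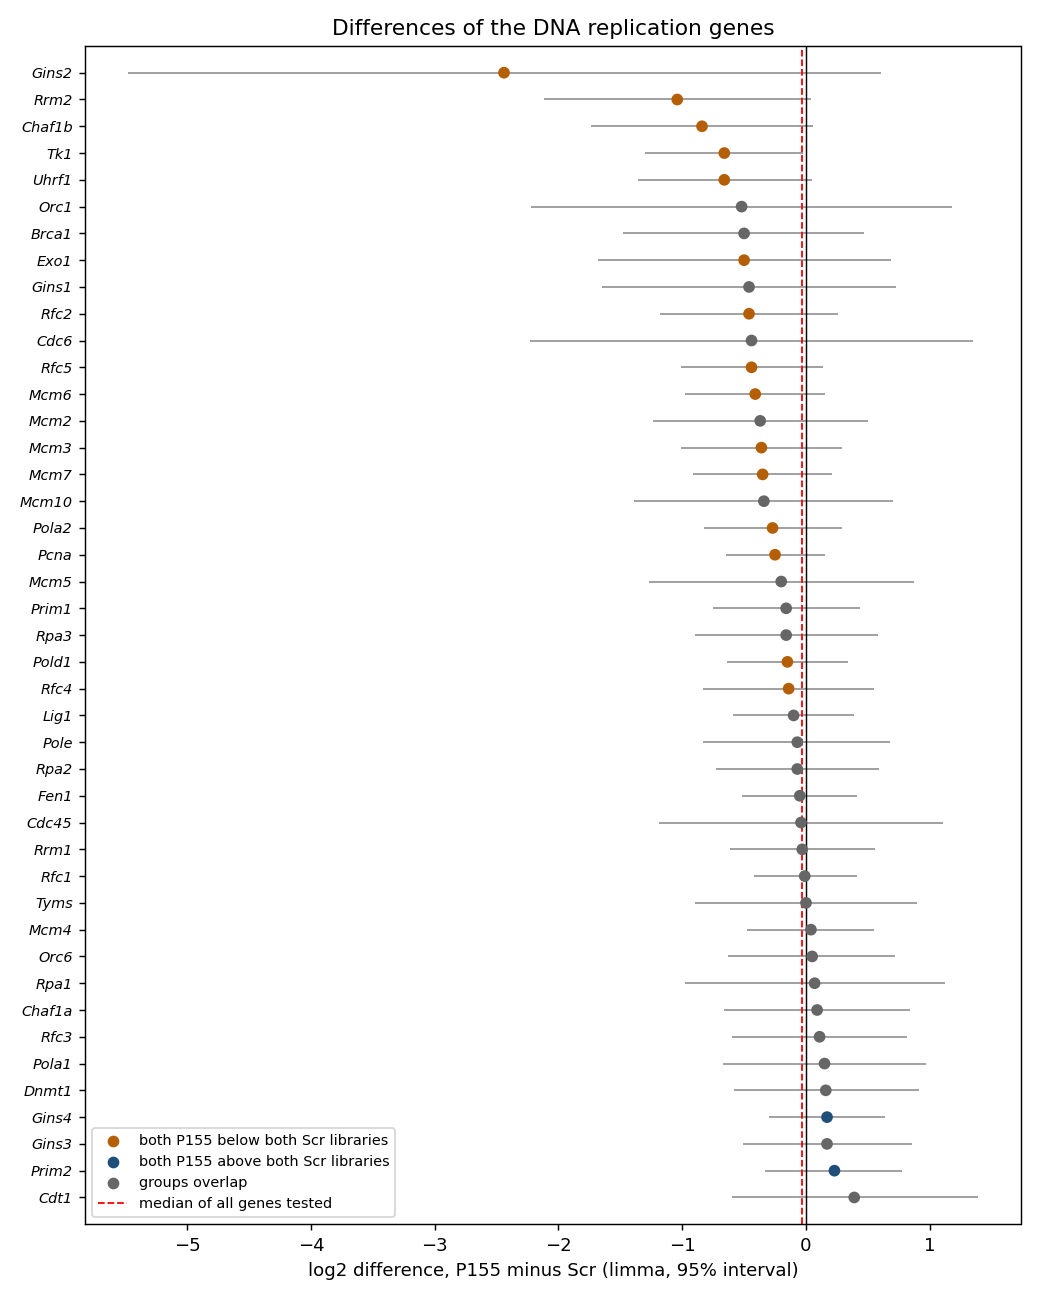
Log2 difference between P155 and Scr for each replication gene, sorted, with its 95% limma interval. Orange points mark the 15 genes whose P155 libraries both lie below both Scr libraries, blue points the 2 with the opposite order, grey points the 26 with overlap, and the dashed line the median of all genes tested, -0.03.

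Several subunits of the MCM ring had small log2 differences below 0, whose size depended on single libraries. MCM2 to MCM7 form the helicase that unwinds DNA ahead of the fork. Mcm6 (ENSMUSG00000026355, chromosome 1, 128331590 to 128359664, minus strand, mm10) stood at 10.04 and 9.76 under Scr and 9.61 and 9.36 under P155. Mcm7 stood at 10.04 and 9.99 under Scr and 9.86 and 9.48 under P155. Mcm3 stood at 9.32 and 9.0 under Scr and 8.96 and 8.64 under P155. In these 3 subunits the groups did not overlap, with P155 replicate 5 the lowest each time. Their log2 differences were -0.41 for Mcm6 (SE 0.22), -0.35 for Mcm7 (SE 0.21) and -0.36 for Mcm3 (SE 0.25), each with limma adjusted p = 0.861. Without P155 replicate 5 they were -0.29, -0.16 and -0.19 in this order, and without Scr replicate 4 they were -0.27, -0.32 and -0.20. Mcm2 stood at 9.68 and 9.0 under Scr and 9.21 and 8.74 under P155, with overlap, and its log2 difference of -0.37 was -0.03 without Scr replicate 4 and -0.13 without P155 replicate 5. Mcm5 stood at 9.29 and 8.24 in Scr replicates 4 and 5, then 8.56 and 8.57 in the P155 replicates of these numbers. Its lower mean in P155 came from Scr replicate 4, and without that library the log2 difference was 0.33. Mcm4 stood at 10.14 and 9.90 under Scr and 10.16 and 9.95 under P155, which left no difference beyond the replicate gaps (95% interval -0.48 to 0.55). Per kilobase of annotated exon, the mean level over the 4 libraries ran from 84.4 normalized reads for Mcm2 to 293 for Mcm4, with Mcm5 at 105, Mcm3 at 136, Mcm6 at 180 and Mcm7 at 210.

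Origin licensing factors, whose levels are tied to G1 and S phase, varied more between Scr libraries than between groups. Cdc6, the loader that works with the origin complex, stood at 7.34 and 5.76 in Scr replicates 4 and 5, then 5.69 and 6.53 in the P155 replicates of these numbers. Orc1, the origin complex subunit that varies through the cell cycle, was at 6.23, 4.81, 4.81 and 5.19 in the same order. Both were highest in Scr replicate 4, and leaving that library out turned their log2 differences from -0.44 to 0.35 and from -0.52 to 0.19. Cdt1, the licensing partner of CDC6, stood at 7.96 and 7.14 under Scr and 7.81 and 8.07 under P155, the largest positive difference of the members at 0.39 (95% interval -0.60 to 1.39). That difference rested on Scr replicate 5, since it came to -0.01 when that library was left out, and to 0.80 when Scr replicate 4 was. Orc6, at 9.09 to 9.52 over the libraries, had a log2 difference of 0.05. Orc1 had 21 reads in P155 replicate 5, the lowest count of any member, and 7 members had under 100 reads in some library. With such counts, 2 libraries per group and these replicate gaps, small differences in the scarcest genes were not detectable.

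Genes that switch on the helicase differed from each other, and Gins2 had the most extreme value of all members. Gins2, a GINS subunit (ENSMUSG00000031821, chromosome 8, 120578633 to 120589304, minus strand, mm10), stood at 9.19 (replicate 4) and 10.90 (replicate 5) under Scr and at 9.11 and 6.10 under P155. The libraries numbered 4 were nearly equal, so the difference rested on the high value of Scr replicate 5 and the low value of P155 replicate 5. The log2 difference of -2.44 had an SE of 1.16 and a 95% interval from -5.48 to 0.61 (limma adjusted p = 0.861). For Gins2 it was -0.93 without P155 replicate 5 and -1.58 without Scr replicate 5. Of its annotated exon bases 67.3% overlap exons of Gse1 on the opposite strand, a gene at 10.70 to 11.55 in these libraries. The members' median without Gins2 was -0.15. Gins1, at 6.37 and 7.27 under Scr and 6.51 and 6.20 under P155, had a log2 difference of -0.46 that rested on Scr replicate 5, with -0.01 when that library was left out. Leaving out Scr replicate 4 gave -0.92. Gins3 and Gins4 each had 0.17. Gins4 stood at 9.96 and 10.16 under Scr and 10.19 and 10.27 under P155, with P155 above Scr by less than the Scr gap. Cdc45, which completes the active helicase, stood at 7.84 and 7.0 under Scr and 7.07 and 7.69 under P155, so the groups crossed. Mcm10, a factor of origin firing, was lowest in P155 replicate 4, at 6.61, and ranged from 7.28 to 7.46 in the others.

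Polymerase and primase genes lay within a narrow range. Pold1, the catalytic subunit of the lagging strand polymerase, stood at 9.38 and 9.37 under Scr and 9.22 and 9.23 under P155. The replicates agreed to 0.01, and the log2 difference was -0.15 (SE 0.19, 95% interval -0.64 to 0.34, limma adjusted p = 0.885). Pole, the catalytic subunit of the leading strand polymerase, stood at 8.38 and 7.87 under Scr and 8.07 and 8.04 under P155. Pola1, which extends primers, stood at 8.85 and 8.18 under Scr and 8.59 and 8.74 under P155. For both genes the P155 values lay between the Scr values. The accessory subunit gene Pola2 stood at 9.16 and 9.41 under Scr and 9.0 and 9.05 under P155 (log2 difference -0.27, or -0.14 without Scr replicate 5). The primase subunit gene Prim2 stood at 8.69 and 8.83 under Scr and 8.92 and 9.05 under P155 (log2 difference 0.23), while the other subunit gene, Prim1, had a log2 difference of -0.16.

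Clamp and clamp loader genes included some of the most abundant members per exon kilobase, with Pcna, Rfc2 and Rfc1 at ranks 1, 4 and 5 of 43, whereas Rfc4, Rfc3 and Rfc5 ranked 19, 23 and 25. Pcna, the sliding clamp gene, stood at 11.41 and 11.34 under Scr and 11.08 and 11.17 under P155. The groups did not overlap, and the log2 difference was -0.25 (SE 0.15, 95% interval -0.65 to 0.15, limma adjusted p = 0.861). Leaving out each library in turn moved it only between -0.30 and -0.21. Rfc5 stood at 8.81 and 8.99 under Scr and 8.49 and 8.43 under P155, a log2 difference of -0.44 (SE 0.22). Rfc2 stood at 11.37 and 12.08 under Scr and 11.31 and 11.22 under P155, a log2 difference of -0.46 that was -0.11 without Scr replicate 5. The gene Lat2, a leukocyte adaptor whose exons overlap 15.1% of the Rfc2 exon bases on the opposite strand, was also highest in Scr replicate 5, at 10.15 against 8.85 to 9.32, and its part in the Rfc2 value was not tested. Rfc1, the large subunit, stood at 11.12 and 10.98 under Scr and 11.08 and 11.00 under P155, with a 95% interval from -0.42 to 0.41. Rfc3 and Rfc4 had log2 differences of 0.11 and -0.14.

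Genes for RPA, the complex that coats single-stranded DNA, differed more between library numbers than between treatments. Rpa1 stood at 11.13 (replicate 4) and 11.96 (replicate 5) under Scr and at 11.23 and 12 under P155. Rpa2 stood at 9.51 and 9.79 under Scr and 9.35 and 9.81 under P155. Rpa3 stood at 8.30 and 8.60 under Scr and 8.08 and 8.51 under P155. In all 3 genes the libraries numbered 5 were higher, and the treatment differences were 0.07, -0.07 and -0.16. This did not hold for the 43 members as a whole, in which libraries of the same number did not deviate together (correlation across genes -0.433). Of the genes that finish lagging strand fragments, the ligase gene Lig1 stood at 10.15 and 10.13 under Scr and 9.92 and 10.17 under P155. The flap endonuclease gene Fen1 stood between 9.61 and 9.72 in all 4 libraries, although 78.8% of its exon bases overlap a predicted antisense gene that is itself scarce, at 3.48 to 5.38. The exonuclease gene Exo1 was the scarcest member per exon kilobase, at 5.64 and 5.51 under Scr and 4.85 and 5.32 under P155 (log2 difference -0.50, SE 0.45, or -0.26 without P155 replicate 4). Brca1, which protects and repairs stalled forks, stood at 8.07 and 7.81 under Scr and 7.82 and 7.05 under P155. Its P155 libraries disagreed, and the log2 difference of -0.50 was -0.12 without P155 replicate 5.

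Other genes of the pathway gave a similar picture for replication and a different one for mitosis. Of 42 further replication factors 32 were lower and 10 higher under P155, at a median log2 difference of -0.11, with 0 called by limma and 1 at an unadjusted p under 0.05. Over all genes, the share that was lower was 53.4%, and the share lower at that threshold was 3.18%. The clamp loader gene Chtf18 stood at 7.38 and 7.72 under Scr and 6.76 and 6.70 under P155. Ticrr, needed for origin firing, had a log2 difference of -1.57 (SE 0.62) and Gmnn, the inhibitor of CDT1, -0.62 (SE 0.28). Of 24 fork repair and checkpoint genes 13 were lower (median -0.06, 0 called), among them Fancd2 of the Fanconi pathway at -1.04 (SE 0.36) and the BRCA1 partner gene Bard1 at -0.61 (SE 0.30), while the recombination gene Xrcc2 was at 0.48 (SE 0.26). Of 21 further nucleotide synthesis genes 7 were lower and 14 higher (median 0.06, 0 called), with the purine synthesis gene Paics at 0.46 (SE 0.29), the CTP synthase gene Ctps at 0.33 (SE 0.22) and Samhd1, which breaks down deoxynucleotides, at -0.34 (SE 0.21).

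In contrast to the small values of the replication genes, 21 of 22 mitosis and G2 genes stood below Scr in the P155 group (median log2 difference -0.95). In all 21 the P155 values were below the Scr values without overlap, which held for 19.6% of all genes. An unadjusted p under 0.05 was found for 11 of them, against 3.18% of all genes that were lower at this threshold, and 0 were called by limma. Cdk1, the mitotic kinase, stood at 8.15 and 8.18 under Scr and 7.14 and 6.90 under P155. The kinase gene Plk1 and the motor gene Kif23 had log2 differences of -1.25 (SE 0.31) and -1.17 (SE 0.28). Anln, the gene of the cytokinesis scaffold anillin, which oligodendrocytes also express, was the exception and stood at 12.66 and 12.43 under Scr and 13.09 and 12.96 under P155. The difference between this list and the replication genes was not tested. This list, like the other gene lists here, was chosen with earlier results of these data known. Its counts beside those of all genes are therefore a description and no independent support. Of 29 genes of G1 and S cyclins, kinases and E2F factors 20 were lower (median -0.14, 0 called), beside 53.4% of all genes. Among them E2f3 stood at 10.25 and 10.17 under Scr and 8.47 and 8.30 under P155, E2f2 had a log2 difference of -1.28 (SE 0.30) and Foxm1, a factor of mitotic genes, -0.77 (SE 0.28).

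**Figure D3:**
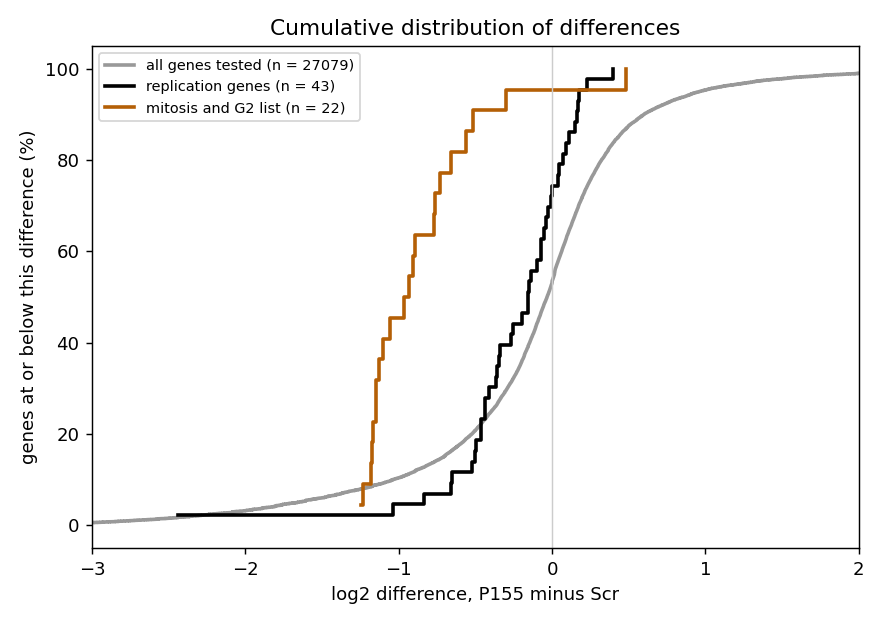
Cumulative share of genes, in percent, at or below each log2 difference between P155 and Scr, for all 27079 genes tested, the 43 replication genes and the 22 mitosis and G2 genes; genes beyond the ends of the axis are not drawn. The replication curve lies near that of all genes, with medians of -0.16 and -0.03, and the mitosis curve lies to the left, with a median of -0.95.

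Immune and erythroid markers varied over the libraries by more than the mean of the replication genes did. In bulk samples, fewer cells of a type and less RNA per cell cannot be told apart. In all 15 pan-leukocyte markers the P155 values were below the Scr values without overlap, against 19.6% of all genes, with a median log2 difference of -0.82. Their summed level, the log2 of their added normalized reads, was 15.68 and 16.22 in Scr and 15.44 and 14.86 in P155. Of 12 T cell markers all were lower (median log2 difference -0.75), 6 without overlap, against 19.6% of all genes. Their summed level, set mostly by the most abundant markers, was 14.82 and 15.04 in Scr and 14.89 and 14.80 in P155. Cd3e stood far below that sum, at 7.55 and 8.27 under Scr and 7.61 and 7.03 under P155. The sum therefore follows other genes of the list and is not read as a level of T cells. The mean level of the T cell markers relative to the mean of the libraries was -0.05 and 0.83 in Scr and -0.03 and -0.75 in P155. Of 10 B cell markers 9 were lower, each without overlap (median -1.43). By limma 7 had an unadjusted p under 0.05, against 3.18% of all genes lower at that threshold, and 0 were called. The summed B cell level was 13.59 and 13.85 in Scr and 13.09 and 13.18 in P155. The 10 neutrophil markers summed to 15.99 and 14.13 in Scr replicates 4 and 5, then 12.54 and 14.81 in the P155 replicates of these numbers. The 8 erythroid markers summed to 17.28, 16.65, 15.66 and 17.11 in the same order. Both lists were highest in Scr replicate 4 and lowest in P155 replicate 4, which were the libraries that most often held the highest and the lowest value of a replication gene. The part of these cells in the replication values was not tested. No marker of these lists was at 0 in all libraries.

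**Figure D4:**
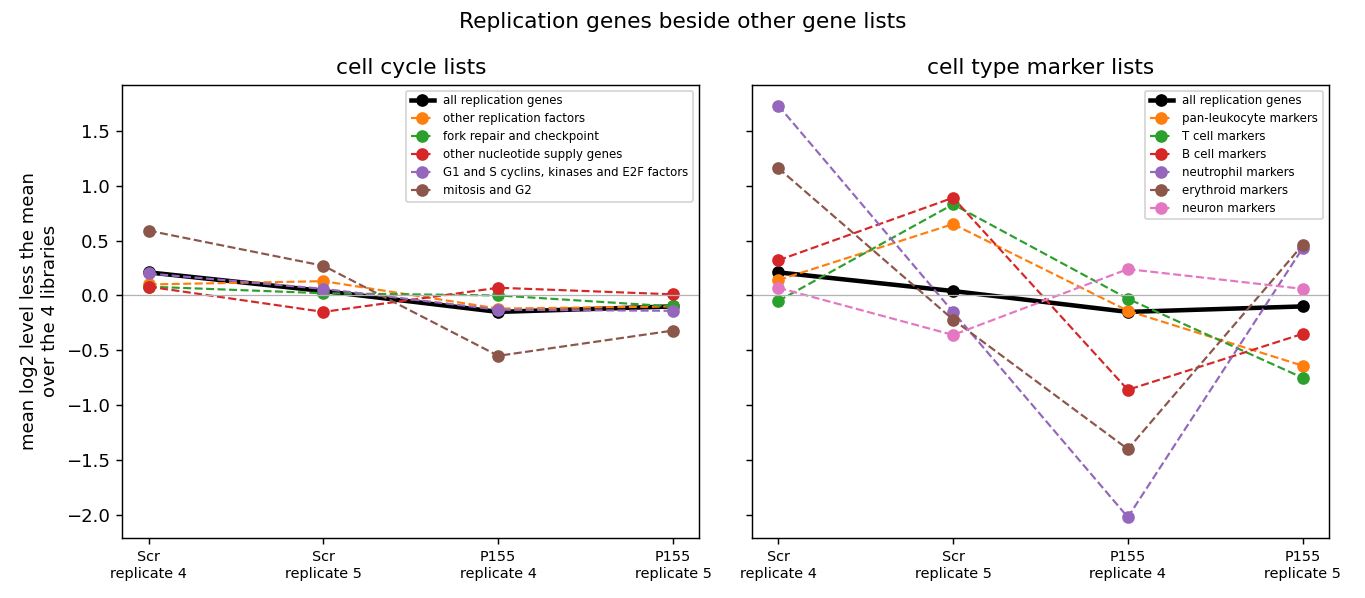
Mean log2 level of each gene list in each library, relative to the mean over the 4 libraries, for cell cycle lists (left) and cell type marker lists (right); lines join the libraries of a list and show no order. The replication genes run from 0.21 in Scr replicate 4 to -0.15 in P155 replicate 4, mitosis and G2 genes from 0.59 to -0.55, and neutrophil markers from 1.73 to -2.02.

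Neural RNA was abundant beside these markers although the labels name mononuclear cells. Astrocyte markers summed to between 18.84 and 18.94. Oligodendrocyte markers summed to 19.48 and 19.52 in Scr and 19.57 and 19.66 in P155, without overlap, and 5 of 8 were higher in P155 (median log2 difference 0.07). Of 8 neuron markers 7 were higher (median 0.28), 4 of them above Scr without overlap, against 15.2% of all genes, and 1 at an unadjusted p under 0.05, against 1.17%. This was opposite in sign to the medians of the leukocyte and mitosis lists, and 0 neuron markers were called by limma. Summed neuron markers (18.67 and 18.25 in Scr, 18.87 and 18.66 in P155) and summed astrocyte markers overlapped between groups. The part of neural RNA in the replication values was not tested. Among markers of oligodendrocyte precursors, which divide in the adult cord, 4 of 8 were lower in P155 (median -0.04), and Pdgfra stood at 11.65 and 11.47 under Scr and 11.79 and 11.49 under P155. Of 10 microglia markers 9 were lower, with a median of -0.48. Scr replicate 5 differed from the other libraries in its mitochondrial share, 12.05% of reads against 8.54% to 9.68%, in its share of ribosomal protein genes, 2.79% against 1.64% to 1.77%, and in the share of its top 10 genes, 12.71% against 8.92% to 9.96%.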

How the data were processed

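Per the labels' protocols, poly(A) RNA was captured on oligo(dT) beads and run on an Illumina sequencer. Bcl2fastq, STAR 2.5.3a, DESeq2 and the build mm10 are named in the submitters' processing notes; for the counter, annotation and use of strand, nothing is given in the sources used here. Per library, the deposited table holds log2 values (log2 of normalized reads plus 1), with the authors' group means, log2 fold change, p-value and FDR from a test it does not name. Undoing the log2 gave whole multiples of 1 step per library for 100% of values (tolerance 1e-06), so reads were recovered; size factors were 1.23, 1.19, 1.19 and 0.592 in Scr replicates 4 and 5 and P155 replicates 4 and 5.

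A gene was tested when 2 or more libraries had a normalized value of 1 or more, which left 27079. The test was two-sided, by limma (version 3.58.1, R 4.3.3) with the trend option, and p-values were adjusted over all genes by the Benjamini-Hochberg method. It was tried on simulated data whose log2 changes were far larger than the differences of most members. That trial says nothing about differences of the members' size. Differences on the scale of log2(normalized reads + 1) understate the change of low genes. Values in every library were due for the 2 members of each role group with the smallest p and a fixed set; those of Gins4, Mcm10 and Fen1 were added after they were seen. Of each further pathway list the 3 genes with the smallest p are named; Anln, Gse1, Lat2 and the antisense gene at Fen1 were named after their values were seen. The members and lists were chosen with earlier results of these data known. Coordinates, exon lengths and overlaps are from GENCODE M21 (mm10), and upstream windows from RefSeq (GRCm38.p6, the same build). Alternatives were the replicate number as a block, each library left out, library size scaling, no filter, a mean of at least 50 normalized reads, a pseudocount of 0.1, limma-voom on recovered reads and a pan-leukocyte scale.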

Additional observations from a re-analysis of the deposited data

How the results depend on the processing

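No member had an adjusted p under 0.05 by limma in any of the 11 alternatives, and all genes gave 0 calls in each of them except on the pan-leukocyte scale, where 251 of 27079 genes were called after the median of all genes had shifted by 0.79. On that scale the members' median was 0.63, 29 members changed sign, among them Tk1 at 0.13, and 0 members had both P155 libraries below both Scr libraries, since the markers that set the scale were themselves lower in P155. Leaving out each library in turn gave a members' median between -0.25 and -0.09, 0 members called in each fit and 1 to 2 at an unadjusted p under 0.05; in these fits the lone library of an arm is assumed to vary like the other arm. Without one library at a time, 20 members stayed lower and 2 stayed higher throughout, and 21 changed sign. The count at an unadjusted p under 0.05 was 0 with the replicate block and 2 with a pseudocount of 0.1, and no member changed sign under these settings, either filter choice or limma-voom. Library size scaling turned 2 members, Rfc1 from -0.01 to 0.00 and Tyms from -0.00 to 0.01. The stricter filter left 41 members. Libraries with the same number did not deviate together across genes (correlation across genes 0.071 over 27079 genes and -0.433 over the 43 replication genes), so the numbers were not taken as pairs, and the block moved the count at the unadjusted threshold from 1 to 0. With 2 libraries per group, and 30777553 reads in P155 replicate 5, shifts of the size seen for most members were not detectable.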
